A study of Mus musculus with 9 samples.

Results

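Thyroglobulin, the product of the gene Tg, was followed through single thyroid cells of mice in which Notch signalling had been blocked with antibodies. Tg was taken by its Ensembl identifier, ENSMUSG00000053469, and was 1 of 52636 genes in the count table. Its counts were read in 10186 cells, of which 1169 carried the label Th1, 901 the label Th3, 137 the label Th2 and 7979 one of 13 other cell labels given by the authors.

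Each of the 9 samples was a pool of thyroids from 6 male C57BL/6 mice, collected 7 days after 1 intraperitoneal injection. The ages were given as 10 to 12 weeks in the series text and as 10 to 14 weeks with the samples. Control mice (RW, 3 samples) received 40 mg/kg of an antibody against ragweed. The ligand group (aJ1aJ2, 3 samples) received antibodies against Jag1 and Jag2 at 20 mg/kg each. The receptor group (aN1aN2, 3 samples) received antibodies against Notch1 at 5 mg/kg and Notch2 at 10 mg/kg. No mouse was left without an antibody. The internal sample numbers fell into 3 series: all aN1aN2 samples and no others belonged to 1 of them, so receptor blockade and that series cannot be told apart.

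Thyroglobulin is a very large secreted glycoprotein and the scaffold on which thyroid hormone is made. Follicular cells fold it in the endoplasmic reticulum, export it into the follicle lumen, and iodinate it there with hydrogen peroxide from the dual oxidases. Iodinated thyroglobulin is then taken back up and digested in lysosomes, which frees the hormone. Because its mRNA is so abundant in these cells, broken cells release it into the suspension, and in droplet sequencing such free RNA is captured with cells that do not make it.

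In GRCm38 the gene lies on the forward strand at chr15:66670753-66850721. The full-length transcript Tg-201 has 48 exons and 8454 bases, of which the coding sequence with its stop codon takes 8301, for 2766 codons before the stop. The libraries tagged transcripts at their 3' ends, so the counts should come mainly from the last exons; positions of reads were not analysed here. The end of the coding sequence, in exon 48 at chr15:66850548-66850607, is shown as sequence near that 3' end, with the stop codon in capitals.
Tg: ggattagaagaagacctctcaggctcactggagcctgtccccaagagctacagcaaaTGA
A second gene, Sla, lies inside Tg on the opposite strand at chr15:66780819-66831829. It encodes an adaptor protein of lymphocytes and myeloid cells. Whether the counting used strand is not given in the sources used here.

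The table held 63121420 unique molecular identifiers (UMIs, each standing for 1 captured mRNA molecule), from 3013324 to 11880793 a sample, and every cell had at least 500. Samples held 583 to 1805 cells. 15 barcodes occurred in 2 libraries, which involved 30 cells. No 2 replicates of a group agreed within sampling noise.

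Th1 cells carried the markers of follicular cells: Iyd was seen in 94.1% of them, Foxe1 in 91.8% and Slc26a7 in 90.9%. The sodium iodide transporter Slc5a5 was seen in 46.5%. Th2 and Th3 were mixed by the same marker lists. Summed neutrophil markers reached 19473 CPM (UMI counts scaled to a common total) in Th2, the highest of all labels, and Th3 held 28163 CPM of C cell markers and 15078 CPM of skeletal muscle markers. Among the other labels, endothelial markers were highest in EC1 and EC4, fibroblast markers in F, macrophage markers in M, parathyroid markers in P and Schwann cell markers in S. Mural cell markers were highest in SM, lymphocyte markers in T2 and T1, and hemoglobin genes in Eryth2 and Eryth1. How the authors assigned the labels, and whether Tg itself was used, is not given in the sources used here.

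Tg gave the most UMIs of any gene in Th1 in all 9 samples. In the RW samples combined it made up 8.97% of Th1 UMIs, ahead of mt-Rnr2 at 2.01%, mt-Cytb at 1.98%, Malat1 at 1.46%, mt-Nd4 at 1.12% and the metallothionein Mt1 at 1.02%. A 3' count does not grow with transcript length, but capture can differ between RNAs and was not measured. These are therefore shares of captured molecules. Every one of the 1169 Th1 cells had Tg UMIs. The lowest cell held 0.362% and the highest 54.9% of its UMIs as Tg.

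Per sample, Tg took 9.14%, 9.40% and 8.70% of summed Th1 UMIs in RW 1, 2 and 3. It took 11.2%, 8.28% and 8.45% in aJ1aJ2 1, 3 and 4, and 9.59%, 10.1% and 11.2% in aN1aN2 1, 2 and 3. The exact 95% binomial interval of RW 1 ran from 9.11% to 9.17%. It covers the counting of UMIs only and leaves out which cells were caught. Over the 180 Th1 cells of RW 1 the Tg share had a coefficient of variation of 43.0%. The 3 aN1aN2 samples all lay above the 3 RW samples, while aJ1aJ2 spanned both groups because of aJ1aJ2 1. As group means, Tg was 9.08% ± 0.357 in RW, 9.33% ± 1.66 in aJ1aJ2 and 10.3% ± 0.812 in aN1aN2 (SD, n = 3 each).

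The median cell gave another order. Its Tg share was 9.31%, 9.87% and 9.0% in RW 1, 2 and 3, against 8.27%, 8.76% and 9.14% in aN1aN2 1, 2 and 3, so on this measure aN1aN2 had the lower mean and the groups overlapped. In aJ1aJ2 1, 3 and 4 it was 11.1%, 8.10% and 8.09%. The mean over Th1 cells thinned to 2000 UMIs, which also weights cells equally, was 10.3% in aN1aN2 and 9.96% in RW, with overlapping samples (exact permutation test, p = 0.6, adjusted 0.90). Of these 3 measures, the summed share and the mean cell were higher in aN1aN2 and the median cell lower. In exact two-sided permutation tests over samples, the summed share differed between aN1aN2 and RW with p = 0.1, the smallest that 3 against 3 samples allow, and the median cell with p = 0.2. Adjusted over the 21 tests of this family, these became 0.35 and 0.525.

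**Figure D1:**
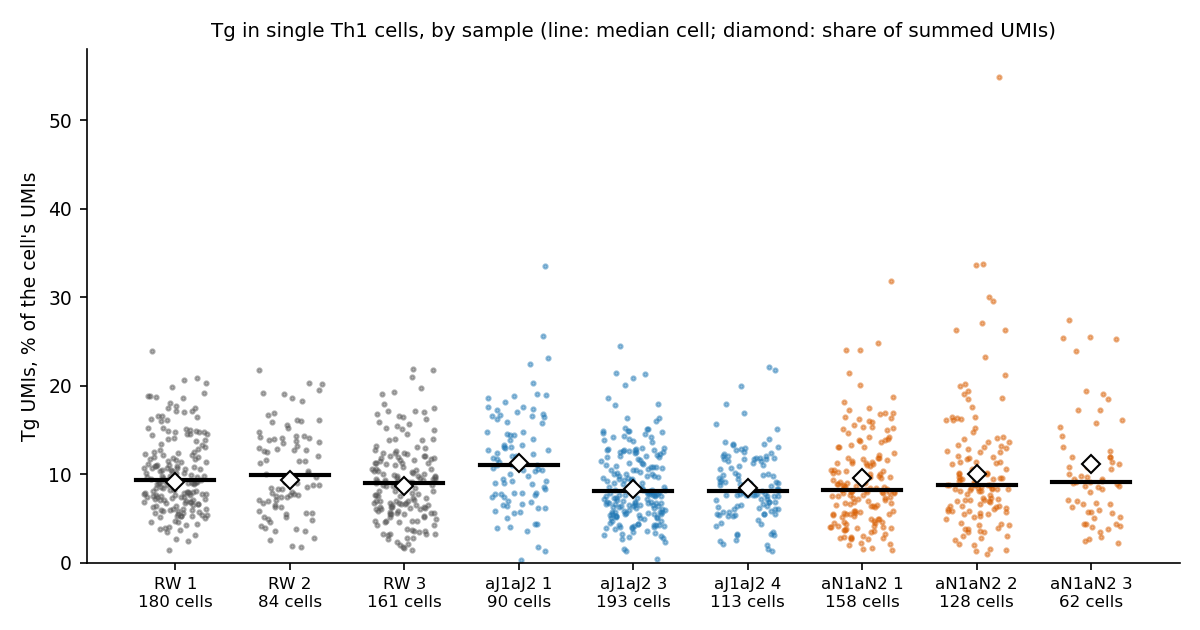
Tg as a percentage of the UMIs of each Th1 cell (y axis), by sample (x axis, with its number of cells). Points are cells, the line is the median cell and the diamond is the share in the summed UMIs. The diamonds of aN1aN2 sit above their lines, those of RW below theirs, and the highest cell, at 54.9%, is in aN1aN2 2.

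None of the 3 comparisons of Tg in Th1 passed the test on summed counts (edgeR's quasi-likelihood test over 10627 genes, Benjamini-Hochberg adjusted). For aJ1aJ2 against RW the log2 change was 0.04 (SE 0.13, 95% interval -0.25 to 0.32, adjusted p = 0.957), in a comparison where 0.612% of genes tested were called at an adjusted p under 0.05. For aN1aN2 against RW it was 0.19 (interval -0.10 to 0.47, adjusted p = 0.305), where 34.4% of genes were called. For aN1aN2 against aJ1aJ2 it was 0.15 (interval -0.13 to 0.43, adjusted p = 0.472), where 22.3% were called.

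A single library weighed on 2 of these values. Without aJ1aJ2 1, whose Th1 share of Tg was the highest of its group, the change of aJ1aJ2 against RW became -0.16 (adjusted p = 0.386). In the same fit aN1aN2 against aJ1aJ2 rose to 0.35 with an adjusted p of 0.0225, which passed the threshold. Within the number series that held RW 1, RW 2, aJ1aJ2 3 and aJ1aJ2 4, the change of aJ1aJ2 was -0.18 (adjusted p = 0.192). A fit of RW and aJ1aJ2 with the number series as a block gave 0.01.

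Tg molecules per Th1 cell differed far more than their share. The median cell held 1632, 1461 and 2027 Tg UMIs in RW 1, 2 and 3, and 1749, 1078 and 895 in aJ1aJ2 1, 3 and 4. In aN1aN2 1, 2 and 3 it held 586.5, 713.5 and 795, below every sample of the other groups (exact permutation test against RW, p = 0.1, adjusted 0.35). Total UMIs per median Th1 cell moved the same way, from 12535 to 22558 in RW, from 9968 to 15314 in aJ1aJ2 and from 5737 to 7558 in aN1aN2. Less RNA per cell and less capture or sequencing per cell cannot be told apart here.

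Other measures also separated the Th1 cells of aN1aN2 from RW. Transcripts of the mitochondrial genome made up 6.60% to 6.99% of Th1 UMIs in aN1aN2 and 8.07% to 8.83% in RW. Summed parathyroid markers stood at 96.4 to 237 CPM in aN1aN2 and 6.67 to 38.4 in RW, and summed skeletal muscle markers at 5.48 to 39.4 CPM and 1.72 to 5.11 CPM. Summed macrophage markers overlapped, at 113 to 573 CPM and 546 to 913 CPM, as did C cell markers, at 1016 to 1892 CPM and 438 to 1107 CPM. Their part in the Tg values was not tested.

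The relation of Tg share to depth differed between the groups as well. Spearman's rho between a cell's Tg share and its total UMIs was -0.33, -0.29 and -0.11 in RW 1, 2 and 3. It was -0.17, -0.13 and 0.02 in aJ1aJ2 1, 3 and 4, and 0.24, 0.10 and 0.34 in aN1aN2 1, 2 and 3. These are descriptions over 62 to 193 cells a sample that share 1 library, and the share has the depth as its denominator. All 3 aN1aN2 values were above 0 and all 3 RW values below it.

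Depth bins showed where the samples diverged. Among cells with 5000 to 20000 UMIs the median Tg share was 11.1%, 12.7% and 9.43% in RW 1, 2 and 3, and 9.02%, 9.45% and 10.3% in aN1aN2 1, 2 and 3. Above 20000 UMIs it was 8.08%, 7.23% and 8.83% in RW, from 76, 24 and 91 cells, and 9.06%, 8.80% and 10.0% in aN1aN2, from 23, 24 and 12 cells. In the middle bin RW 1 and RW 2 lay above all 3 aN1aN2 samples, and in the deepest bin below all 3. Cells under 5000 UMIs numbered 5, 6 and 7 in RW and 57, 54 and 22 in aN1aN2.

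**Figure D2:**
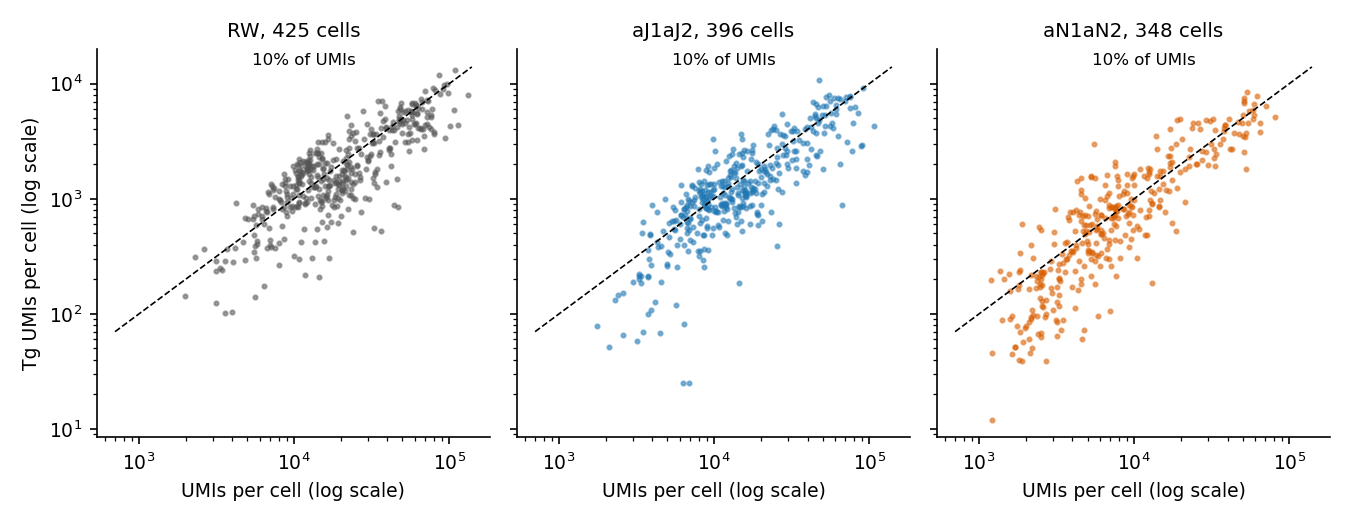
Tg UMIs (y axis, log scale) against all UMIs (x axis, log scale) of each Th1 cell, in 1 panel for each antibody group. The dashed line marks a Tg share of 10%. Cells of aN1aN2 reach further down in depth, and their shallow cells scatter mostly below the line.

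The spread of Tg between Th1 cells was wide in every sample. After each cell was thinned to 2000 UMIs, the ratio of the upper to the lower quartile of Tg was 1.81, 2.05 and 1.96 in RW 1, 2 and 3, and 1.98, 1.94 and 1.82 in aJ1aJ2 1, 3 and 4. The coefficient of variation ran from 44.1% to 70.8% over the 9 samples, where counting error alone would give 6.15% to 7.20%. Thinning left out 1 RW cell, 1 aJ1aJ2 cell and 6, 13 and 6 cells of aN1aN2 1, 2 and 3.

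In aN1aN2 1, 2 and 3 the quartile ratio was 2.12, 2.11 and 2.27, above all samples of the other groups. Group means were 1.94 ± 0.119 in RW, 1.91 ± 0.0815 in aJ1aJ2 and 2.17 ± 0.0907 in aN1aN2 (SD, n = 3 each). Both differences from aN1aN2 had p = 0.1 in the exact permutation test, the smallest possible, and 0.35 adjusted. At 5000 UMIs a cell the direction turned, with aN1aN2 lower than RW by -0.11 (exact permutation p = 0.5), over the 101, 74 and 40 aN1aN2 cells deep enough to enter. At 1000 UMIs a cell, where no aN1aN2 cell was left out, the difference was 0.19.

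Within Th1 cells, Tg was set against 4 gene lists for the steps of its life, each summed per cell after thinning to 2000 UMIs and taken per UMI that was not Tg. With iodide transport and iodination, Spearman's rho was above 0 in 9 of 9 samples, from 0.13 to 0.57. With folding and export it ran from -0.02 to 0.63 and was above 0 in 8 samples. With uptake and proteolysis it ran from -0.06 to 0.41, and with transcription factors and Tshr from -0.05 to 0.19. Mitochondrial transcripts gave -0.17 to 0.62, with RW between 0.25 and 0.62 and aN1aN2 between -0.17 and 0.14.

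The genes that act on thyroglobulin moved in different directions and sizes. Of 23 genes for folding and export, all 23 were measured in Th1 and 21 were lower in aN1aN2 than in RW, with a median log2 change of -2.38, against 0.02 over all genes tested. In that comparison 17.3% of all 10627 genes tested were called lower. Sdf2l1, which works with the chaperone BiP, was at 540, 780 and 652 CPM in RW 1, 2 and 3 and at 25.2, 19.4 and 23.0 CPM in aN1aN2 1, 2 and 3 (log2 change -4.86, SE 0.20, adjusted p = 1.7e-09).

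Hspa5, which encodes BiP itself, was at 2103, 3016 and 2745 CPM in RW and 363, 261 and 347 CPM in aN1aN2 (log2 change -3.02, SE 0.17). Hsp90b1, the reticulum's Hsp90 chaperone, changed by -3.03, the lectin chaperone Calr by -3.24, and Derl3, of the degradation machinery, by -4.32. For these genes the 2 groups did not overlap. The 2 members that did not pass were the oxidase Ero1a (log2 change -0.19, adjusted p = 0.352) and the stress sensor Atf6 (-0.18, adjusted p = 0.447). With each Th1 cell thinned to 2000 UMIs, Ero1a stood at 0.71.

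Under ligand blockade 4 of the 23 were lower than in RW, with a median of -0.49 against 0.01 over all genes, where 0.226% of all genes were called lower. These were Sdf2l1 (-1.0), Derl3 (-1.13), Pdia4, a disulfide isomerase (-0.75), and Hsp90b1 (-0.65). Hspa5 was at -0.54 (adjusted p = 0.133). The count rested on single libraries: it was 0 without aJ1aJ2 3, 1 without aJ1aJ2 4 or without RW 2, and 14 without aJ1aJ2 1. RW and aJ1aJ2 shared 2 series of internal sample numbers, and with the series as a block 11 members were called. Within the series of RW 1, RW 2, aJ1aJ2 3 and aJ1aJ2 4 alone, 14 were called. The number of all genes called moved as well, from 65 of 10627 in the main fit to between 1 and 530 with 1 sample left out. It also rose with the block and within that series, as given in the last section. Hspa5 was called without aJ1aJ2 1 (-0.67, adjusted p = 0.0181).

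For iodide transport and iodination, 7 of 11 genes were measured well enough to test. Under receptor blockade 4 were lower, none was higher, and the median was -0.74, against 17.3% of all genes called lower and a median of 0.02 over all genes. Slc5a5, which brings iodide into the cell, was at 283, 252 and 196 CPM in RW 1, 2 and 3 and at 18.7, 15.8 and 9.67 CPM in aN1aN2 1, 2 and 3 (log2 change -3.96, SE 0.36, adjusted p = 9.95e-07). Iyd, which recovers iodide from iodotyrosines, changed by -1.42, the anion exchanger Slc26a7 by -0.81 and the oxidase maturation factor Duoxa2 by -0.74. The call of Duoxa2 was lost without RW 2, RW 3 or any of the 3 aN1aN2 samples, and with each cell thinned to 2000 UMIs its change was 0.065 (adjusted p = 0.918). Under ligand blockade no member passed. Slc5a5 was at 183, 87.3 and 62.4 CPM in aJ1aJ2 1, 3 and 4 (log2 change -1.15, adjusted p = 0.0721), and it was called without aJ1aJ2 1 (-1.67) and without RW 3 (-1.29).

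The regulators of Tg transcription split. Of 9 listed genes 8 were tested, and under receptor blockade 4 were lower and 3 higher. Over all genes 17.3% were called lower and 17.1% higher. The transcription factors Pax8 and Nkx2-1 were higher by 0.31 (adjusted p = 0.0314) and 0.27 (adjusted p = 0.0473), and Creb3l2 by 1.04. Pax8 stood at 307, 293 and 326 CPM in RW and at 384, 407 and 361 CPM in aN1aN2, with no overlap. Foxe1, the third of the thyroid factors, fell by 0.97 on the log2 scale, Hhex by 0.49, the stimulatory G protein gene Gnas by 0.61, and Tshr, the receptor for thyrotropin, by 1.47. The calls of Nkx2-1 and Pax8 were lost without RW 1, RW 2, aN1aN2 1 or aN1aN2 2, and that of Nkx2-1 also without RW 3, aJ1aJ2 4 or aN1aN2 3. With cells thinned to 2000 UMIs 4 members of the list were called in place of 7, without Pax8, Nkx2-1 and Hhex. The number of all genes called, 3653 in the main fit, fell with thinned cells as well, as given in the last section. Under ligand blockade Tshr alone was called, at -0.93, and not without RW 1, RW 2, aJ1aJ2 3 or aJ1aJ2 4.

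For uptake and proteolysis, 11 of 15 genes were tested, and under receptor blockade 6 were lower and 1 higher, with a median of -0.44. Over all genes 17.3% were called lower and 17.1% higher, with a median of 0.02. Asgr1, a lectin receptor for glycoproteins, fell by 2.10 on the log2 scale, from 637, 742 and 664 CPM in RW to 175, 140 and 161 CPM. The deiodinase Dio1 was lower by -1.61, the lysosomal protease genes Ctsb, Ctsd and Ctsh by -0.71, -0.44 and -0.39, and the endocytic receptor Lrp2 by -0.51. Ctsl, another lysosomal protease, was higher by 0.27. The total of 7 called genes was 4 without aN1aN2 1 and 4 without aN1aN2 2, and the call of Ctsl was also lost without RW 1 or RW 2. Under ligand blockade Asgr1 alone was called, at -0.76, and not without RW 2, aJ1aJ2 3 or aJ1aJ2 4.

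**Figure D3:**
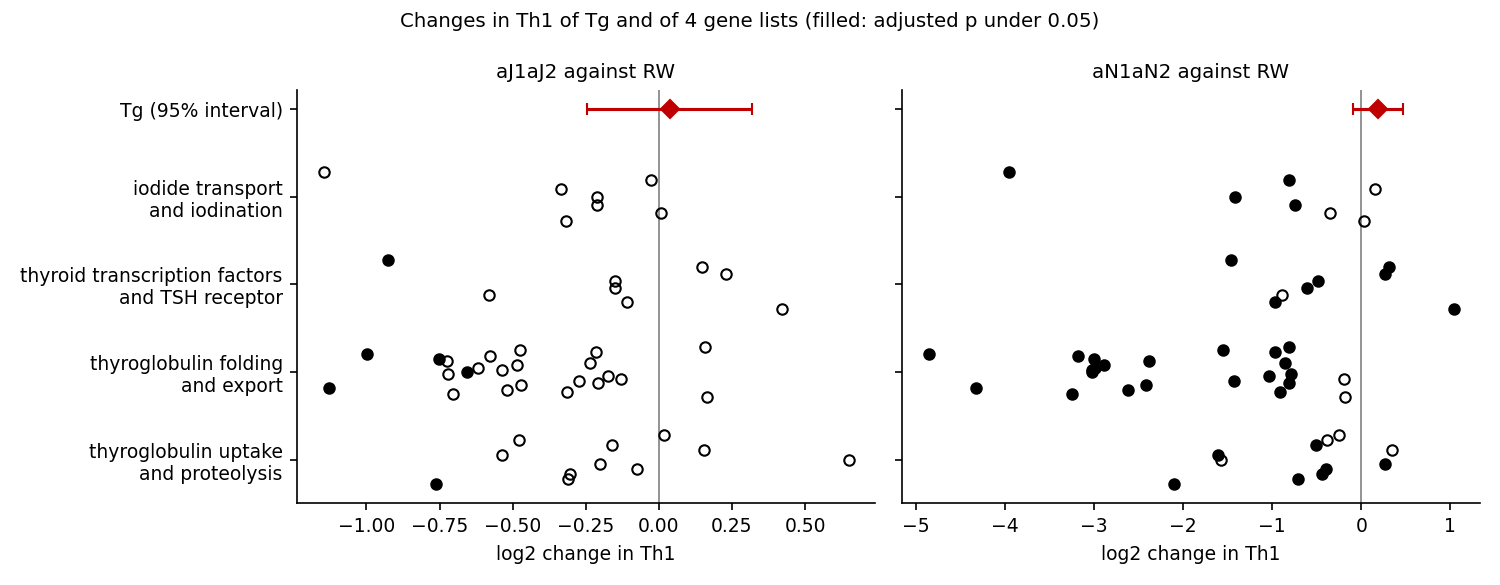
Log2 change in Th1 (x axis) of Tg, with its 95% interval, and of each tested gene of the 4 lists (rows), for ligand blockade (left) and receptor blockade (right) against RW. Filled points passed an adjusted p under 0.05. Tg lies near 0 in both panels, at 0.04 and 0.19, while 21 of 23 folding and export genes are filled and left of 0 on the right. The panels have different x scales, and both comparisons use the same RW samples.

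Sla, inside the Tg locus on the other strand, was scarce in Th1, with 111 UMIs in 93 of the 1169 cells. It stood at 5.77, 7.42 and 3.31 CPM in RW and at 1.10, 0 and 2.42 CPM in aN1aN2 (log2 change -2.37, adjusted p = 0.0173, not called without aN1aN2 1 or aN1aN2 2), against 0.44 for aJ1aJ2 (adjusted p = 0.720). Its level was highest in T2 at 132 CPM, M at 107 CPM and Th2 at 102 CPM. Tg in T2 was 789 CPM, between the 13 labels' lowest, 144 CPM, and highest, 2261 CPM. In Th1 Sla was at 4.74 CPM, where Tg was at 92030 CPM, and the last exon of Tg lies outside Sla. Whether reads of one gene were counted for the other was not tested.

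The genes whose levels over the 9 Th1 samples were most like Tg, among 3079 with a mean of at least 50 CPM, were Epn1 (r = 0.97), Eif3b (0.95), Bcam (0.91), Capn1 (0.90) and Ddr1 (0.90). These are Pearson correlations of log2 CPM that include differences between groups, chosen as the highest, and they carry no test. Within single groups of 3 samples the lowest r of Eif3b was 0.25. Over the 16 labels in RW, the closest genes among 2985 were Ager (0.98), Iyd (0.97), the cadherin gene Cdh16 (0.97), Derl3 (0.97) and Fxyd4 (0.97).

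Outside Th1, Tg was found under every label. Th1 held 93.3% of all 2311493 Tg UMIs, Th3 5.23%, Th2 0.20% and the other 13 labels 1.25%. Over all cells of a label, Th1 stood at 92030 CPM (82847 to 112469 over samples) and Th3 at 79768 CPM (25756 to 121067). Th2 followed at 26397 CPM (2581 to 52768). Among the other labels EC4, with endothelial markers, was highest at 2261 CPM (831 to 4969), and Eryth2, with hemoglobin genes, lowest at 144 CPM (83.9 to 257). Most UMIs of Eryth2 and Eryth1 came from erythroid markers, at 967628 and 931493 CPM, and these count in the total behind the CPM.

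Between EC4 and Eryth2 lay M at 1252 CPM (388 to 5360), EC3 at 1184 CPM (170 to 6003), Eryth1 at 1162 CPM (115 to 3055), EC1 at 975 CPM (678 to 1871), SM at 823 CPM (374 to 1944) and EC2 at 793 CPM (527 to 1519). T2 at 789 CPM (384 to 2673), S at 775 CPM (380 to 2538), T1 at 671 CPM (413 to 852), F at 495 CPM (269 to 923) and P at 248 CPM (122 to 1129) completed the order. The place of EC3 rests on 1 cell of RW 3, described below. Its median over samples was 455 CPM, against 749 CPM in Eryth1 and 495 CPM in F. For all 15 pairs of neighbours in this order the sample ranges overlapped. Only 2 neighbours kept their order in every sample that held both, Th3 over Th2 and P over Eryth2. No sample of the 13 labels reached the lowest Th1 sample.

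**Figure D4:**
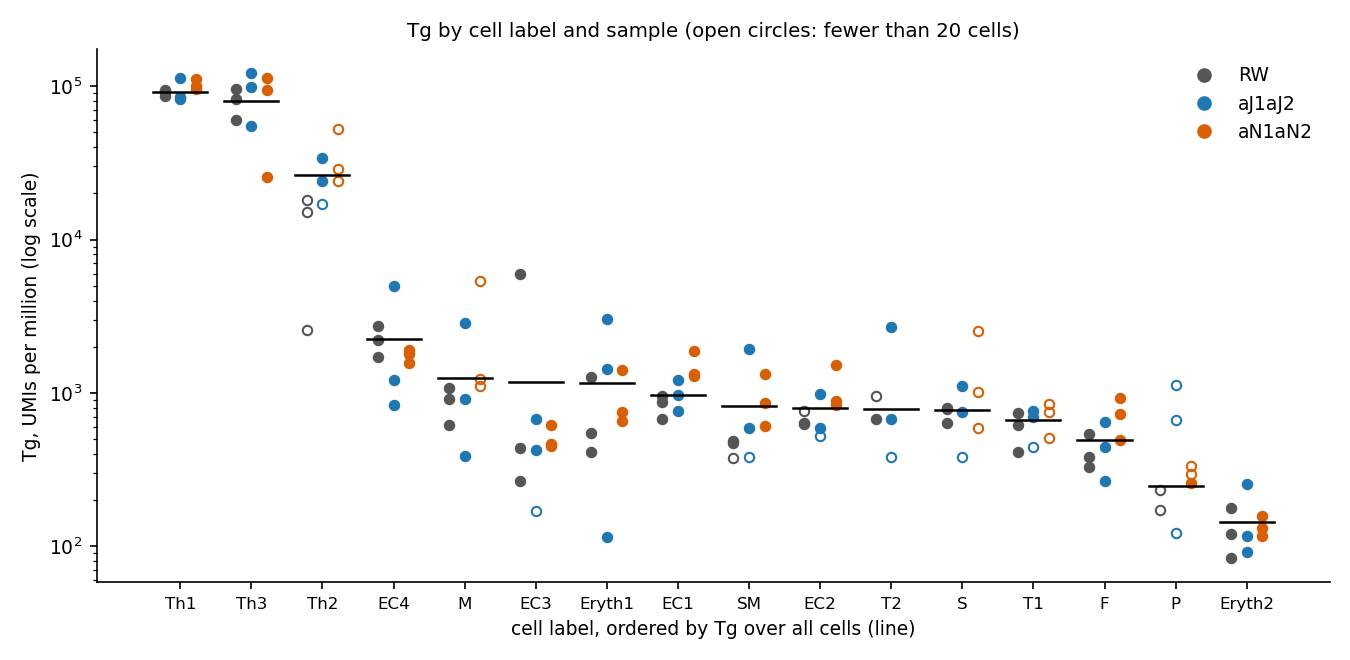
Tg in CPM (y axis, log scale) by cell label (x axis), with 1 point for each sample, coloured by antibody group. The line is the level over all cells of the label, and open circles are samples with fewer than 20 cells. Th1 samples sit between 82847 and 112469, and samples of the remaining 13 labels between 83.9 and 6003.

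Th3 and Th2 were shallow, with a median of 987 and 1014 UMIs a cell against 12553 in Th1. The quartiles of the Tg share over Th3 cells were 1.83%, 7.31% and 15.3%, against 6.19%, 8.91% and 12.5% in Th1, and 19.8% of Th3 cells were under 1%. In Th2 the median share was 0.704%, and 56.9% of cells were under 1%. Tg in Th3 was not called between groups: the log2 change was 0.22 for aJ1aJ2 and -0.01 for aN1aN2 against RW (adjusted p = 0.998 and 0.994), the latter with an interval of -1.05 to 1.03.

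In the 13 labels the mean cell held 3.63 Tg UMIs and the median cell 1, and 72.4% of 7979 cells had at least 1. With each cell thinned to 500 UMIs, the share with Tg ran from 7.88% in Eryth2 (exact binomial interval 6.35% to 9.63%) to 45.1% in EC4 (42.1% to 48.2%). Over the 9 samples the share ran from 1.82% to 16.1% in Eryth2 and from 30.2% to 54.2% in EC4. At 500 UMIs a cell, the samples of these labels did not overlap. Summed erythroid markers took 967628 CPM in Eryth2 and 931493 CPM in Eryth1, against 2082 CPM in EC4. Few of the 500 UMIs of a thinned Eryth2 or Eryth1 cell thus came from other genes. Tg per UMI of other genes was not computed, so these values do not order the labels by free RNA. The median depth of whole cells was 7944.5 UMIs in Eryth2 and 1045.5 in EC4, and the unthinned shares were 55.7% and 68.6%. Per cell, without the high-Tg cells described below, the mean Tg count of the 9 samples had a median of 1.01 in Eryth2, 1.64 in EC4, 2.94 in F and 5.52 in EC1. Droplets without cells were not analysed here, so free RNA was not measured directly.

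Tg outside Th1 was accompanied by Iyd. With all samples together, Th1 had 89.9 Tg UMIs for each Iyd UMI (exact 95% interval 88.8 to 91.1), and the 13 labels had 93.9 (83.9 to 105), or 86.5 (76.7 to 97.8) without the high-Tg cells. Because the Th1 ratio differed between samples, each label was set against the Th1 ratio of the samples its Tg UMIs came from, in the same proportions. For the 13 labels together that ratio was 88.6. EC1 gave 77.6 (65.1 to 93.3) from 125 Iyd UMIs, against 88.4, and Eryth1 gave 96.2 (66.0 to 146) from 27, against 92.2. F gave 163 (88.6 to 341) from 10, against 93.0. For 12 of the 13 labels the interval included the Th1 ratio of the same samples. EC3 gave 112 (78.4 to 167), just above 77.6, and held the largest high-Tg cell. Most of these intervals were wide. Th3 was higher than Th1 of the same samples, at 110 (104 to 117) against 87.4, and Th2 was at 116 (85.0 to 162) against 113.

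**Figure D5:**
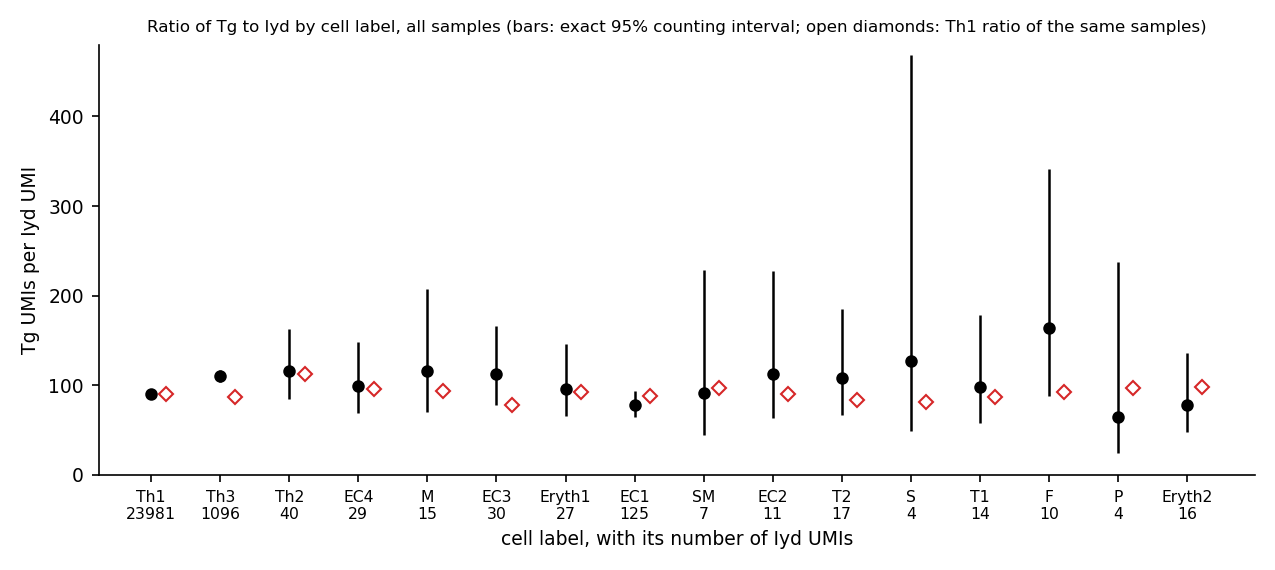
Tg UMIs for each Iyd UMI (y axis) by cell label (x axis, with the number of Iyd UMIs behind the ratio), all samples together. Bars are exact 95% counting intervals, and open diamonds are the Th1 ratio of the samples that the label's Tg UMIs came from, in the same proportions. The diamonds of Th3 (87.4) and EC3 (77.6) lie below the intervals.

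Other thyrocyte genes were also low outside Th1. Tg outside stood at 0.829% of its Th1 level, Foxe1 at 0.636%, Slc26a7 at 0.656%, Iyd at 0.795%, Slc5a5 at 0.836%, Tshr at 0.798%, Dio1 at 0.841%, Nkx2-1 at 0.916% and Pax8 at 1.12%. Hhex, at 18.2%, Duox2, at 16.1%, and Duoxa2, at 3.60%, stood higher. Hhex is also known as an endothelial gene.

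Per sample the Th1 ratio was 69.6, 81.8 and 72.7 in RW 1, 2 and 3, then 98.4, 86.2 and 78.8 in aJ1aJ2 1, 3 and 4, and 213, 216 and 248 in aN1aN2 1, 2 and 3, where Iyd was lower. The cells outside gave 85.0, 83.3 and 67.4 in RW, 157, 96.3 and 103 in aJ1aJ2 and 130, 185 and 114 in aN1aN2, from 6 to 71 Iyd UMIs a sample. The outside ratio was above that of Th1 in all 3 aJ1aJ2 samples and below it in all 3 aN1aN2 samples. In 7 of 9 samples the outside interval included the sample's own Th1 ratio. It lay above that ratio in aJ1aJ2 4 (79.2 to 135) and below it in aN1aN2 3 (66.6 to 215). The difference of the ratios between groups was not tested.

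Over all 13 labels, Tg stood at 691, 541 and 1016 CPM in RW 1, 2 and 3, at 364, 734 and 1145 CPM in aJ1aJ2 1, 3 and 4, and at 775, 696 and 722 CPM in aN1aN2 1, 2 and 3. In these raw CPM, RW and aJ1aJ2 samples spread widely and aN1aN2 lay between the RW samples. With the TMM scaling used in the test, RW stood at 658, 522 and 823 CPM, aJ1aJ2 at 317, 616 and 991 CPM and aN1aN2 at 969, 883 and 1003 CPM, so that all aN1aN2 samples were above RW. The order of the groups thus depended on the scaling. Labels with erythroid markers made up 36.0%, 28.9% and 14.3% of the outside cells in RW 1, 2 and 3, 25%, 14.2% and 17.3% in aJ1aJ2 1, 3 and 4, and 37.95%, 38.8% and 42.2% in aN1aN2 1, 2 and 3. The part of this mix of labels in the pooled Tg values was not tested. On the TMM scale the log2 change was -0.06 for aJ1aJ2 against RW (adjusted p = 1.00), 0.51 for aN1aN2 against RW (interval -0.24 to 1.26, adjusted p = 0.366) and 0.57 for aN1aN2 against aJ1aJ2 (adjusted p = 0.330). Of 12857 genes tested, 0.0233%, 10.3% and 7.59% were called in these comparisons. Tg was called in none of them.

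The change outside was also set against the change inside Th1 in 1 fit with the sample as a block. The difference of the changes was -0.17, 0.42 and 0.58 for aJ1aJ2 against RW, aN1aN2 against RW and aN1aN2 against aJ1aJ2 (adjusted p = 1, 0.660 and 0.538). With 1 sample left out they ran from -0.66 to 0.42, from 0.25 to 0.59 and from 0.0073 to 1.08. In these interactions 0%, 5.66% and 3.14% of 12909 genes were called by edgeR. For aJ1aJ2 against RW, where none was called, 786 genes had an unadjusted p under 0.05, and no other tool was run.

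A small number of cells carried much of the outside Tg. Counted as high-Tg cells were 26 cells of the 13 labels (0.326%) whose Tg share reached the 5th percentile of Th1 cells of their own sample. They held 18.9% of the outside Tg UMIs, with shares from 3.00% to 14.1%. 15 of the 26 came from aJ1aJ2 4, which held 1264 of the 7979 outside cells. 18 of the 26 had a UMI of another thyrocyte marker. Those markers include Hhex, which gave 999 of the 2287 such UMIs over all outside cells. The share of the remaining outside cells with such a UMI was not computed. In depth 12 of the 26 were above the median of their label in the same sample. No doublet caller was run, and none is named in the sources used here.

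The largest of them was an EC3 cell of RW 3 with 40476 UMIs, 2241 of them Tg and 61 of other thyrocyte markers. It alone raised EC3 of RW 3 to 6003 CPM, against 324 CPM without it. Without all such cells, outside Tg was 662, 466 and 535 CPM in RW 1, 2 and 3, 364, 635 and 815 CPM in aJ1aJ2 1, 3 and 4, and 758, 696 and 696 CPM in aN1aN2 1, 2 and 3. These cells were chosen by their own Tg share, so the values without them are a description. Exact permutation tests on such values were run and count in the family of 21 tests, but no result is drawn from them. The aN1aN2 samples then all lay above RW in raw CPM, mostly because RW 3 dropped. In the TMM-scaled fit the log2 change of aN1aN2 against RW became 0.88. The raw means were 716 and 555 CPM, which are closer to each other than that change, and the mix of labels differed as before.

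Single labels were tested where at least 2 samples a group held 20 cells. EC1, the endothelial label with the most cells, was the only one in which Tg was called with p-values adjusted over the genes tested in the label. It stood at 949, 868 and 678 CPM in RW 1, 2 and 3, at 768, 978 and 1207 CPM in aJ1aJ2 1, 3 and 4, and at 1871, 1290 and 1326 CPM in aN1aN2 1, 2 and 3. The aN1aN2 samples lay above all others. The log2 change was 0.82 against RW (SE 0.17, interval 0.47 to 1.17, adjusted p = 0.00117) and 0.59 against aJ1aJ2 (SE 0.17, adjusted p = 0.0192). For aJ1aJ2 against RW it was 0.23 (adjusted p = 0.643). Of 9369 genes tested in EC1, 17.8%, 13.5% and 1.43% were called in these 3 comparisons.

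In Tg UMIs per whole EC1 cell, RW and aN1aN2 samples did not separate. The mean EC1 cell held 7.64, 6.38 and 5.30 Tg UMIs in RW 1, 2 and 3, and 7.00, 6.71 and 5.59 in aN1aN2 1, 2 and 3. Its median depth was 4968, 4679 and 4864.5 UMIs in RW and 2518, 3533.5 and 2671 UMIs in aN1aN2. Thinned to 500 UMIs a cell, the change against RW was 0.51 (adjusted p = 0.144) and that against aJ1aJ2 0.57 (adjusted p = 0.0999). At that depth 30.9%, 23.6% and 22.9% of EC1 cells had Tg in RW 1, 2 and 3. The share was 11.2%, 24.7% and 29.4% in aJ1aJ2 1, 3 and 4. It was 43.6%, 40.3% and 38.7% in aN1aN2 1, 2 and 3, above all other samples. The call against aJ1aJ2 was also lost without aJ1aJ2 1 (adjusted p = 0.0773), aJ1aJ2 3 (0.0542) or aN1aN2 1 (0.181), while that against RW held in all 9 fits that left out a sample (adjusted p at most 0.0213).

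In F, with fibroblast markers, the change of aN1aN2 against RW was the same size, 0.82, with an adjusted p of 0.0519. Tg there was 537, 384 and 327 CPM in RW and 727, 923 and 495 CPM in aN1aN2, with median depths of 5561 to 10026 and 2295 to 3864 UMIs a cell. Per F cell the mean Tg count was 3.56, 3.25 and 2.88 UMIs in RW and 2.74, 3.73 and 1.61 in aN1aN2. With F cells thinned to 500 UMIs, 37.2%, 15.7% and 23.1% had Tg in RW and 29.8%, 24.4% and 21.2% in aN1aN2, so on both of these measures the groups overlapped. EC2 gave 0.72 (adjusted p = 0.101), EC4 -0.42 (0.466), Eryth1 0.18 (0.889) and Eryth2 0.16 (0.790). EC3 gave -2.09 (0.156), a value that includes the high-Tg cell of RW 3. Without that cell its direction turned: EC3 stood at 439, 268 and 324 CPM in RW and at 619, 455 and 463 CPM in aN1aN2. Adjusted instead over the 9 labels tested in this comparison, Th1 and Th3 included, edgeR's p was 0.047 for F and 0.0495 for both EC2 and EC3, which passed 0.05. The EC3 value rests on that 1 cell, and no sample was left out in turn for these labels. M, S, SM and T1 could be tested in 1 comparison each, and Tg was called in none of them. T2, P and Th2 had too few samples with 20 cells.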

How the data were processed

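The authors deposited 1 table of UMI counts per gene and cell, not normalized, and 1 table of cell labels. Per the submitters' processing notes, Cell Ranger and the build GRCm38 were used. The version, the annotation and the handling of strand are not given in the sources used here. In 2619 lines of the label table an unquoted comma had shifted the columns, which was corrected on reading. Reference lists gave symbols for 52403 of 52636 identifiers, and coordinates come from GENCODE M21. No per-sample column belonged to another series.

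UMI sums of each label in each sample were tested with edgeR 4.0.16 (R 4.3.3; filterByExpr, TMM, quasi-likelihood test, all 9 samples in 1 fit with 3 group means, Benjamini-Hochberg threshold 0.05). Alternatives used DESeq2 1.42.0, other size factors, no filter, thinned cells and left-out samples. The scripts were tested on simulated data. For single values per sample, two-sided exact permutation tests were run in scipy 1.17.1. CPM of label sums are raw, and those of single genes in Th1 are TMM-scaled. Thinning drew cells without replacement to 2000 UMIs (Th1) or 500 (other labels). Intervals of shares and ratios cover counting error only, and those of log2 changes come from the edgeR fit over samples.

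The replicate is the pool of 6 mice. Samples RW 3 and aJ1aJ2 1 carry no replicate number in their titles and were numbered here. The gene, the lists and the tests were chosen with earlier results of these data known. Named genes are Tg, list members called in a Th1 comparison, the 5 genes most like Tg over samples and over labels, the 5 highest genes of Th1 in RW besides Tg, and Sla. One gene that these rules would name is not reported here and was left out of the lists. Duox2, which was called in no Th1 comparison, and Slc5a5, Hspa5, Ero1a and Atf6 are also named where they were not called, chosen after their values were seen.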

Additional observations from a re-analysis of the deposited data

How the results depend on the processing

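Tg in Th1, in the 13 other labels together, between these, and in EC1 was recomputed under the alternatives below, and the remaining single labels were not. For aJ1aJ2 against RW in Th1, the change of 0.04 turned to -0.18 in the numbering series of RW 1, RW 2, aJ1aJ2 3 and aJ1aJ2 4 (series B) alone and to -0.025 with cells thinned to 2000 UMIs, and ran from -0.16 to 0.13 with 1 sample left out. For aN1aN2 against RW it ran from 0.09 to 0.24 and for aN1aN2 against aJ1aJ2 from 0.052 to 0.35. Outside Th1 the ligand change of -0.06 turned to 0.46 in series B, 0.23 in EC1 alone and 0.039 without high-Tg cells, and ran from -0.51 to 0.26 with 1 sample left out. EC1 alone passed the threshold at 0.82 against RW and 0.59 against aJ1aJ2. With 1 sample left out, outside Tg ran from 0.36 to 0.69 and from 0.25 to 1.02 for aN1aN2 against RW and aJ1aJ2. The difference between outside and inside for aJ1aJ2 was 0.20 in EC1 alone and ran from -0.66 to 0.42; for aN1aN2 against RW and aJ1aJ2 it ran from 0.25 to 0.59 and from 0.0073 to 1.08. In EC1, thinning to 500 UMIs gave -0.067 for aJ1aJ2 against RW, and for aN1aN2 0.51 against RW and 0.57 against aJ1aJ2. With whole EC1 cells, leaving out 1 sample moved the 0.59 against aJ1aJ2 to 0.40 to 0.77. Setting the quartile ratio at 5000 UMIs gave -0.11 for aN1aN2 against RW and -0.035 against aJ1aJ2, and for aJ1aJ2 against RW left-out samples gave -0.090 to 0.028. The cause of these shifts was not tested.

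The 65 genes called for aJ1aJ2 against RW became 424 without the filter, 104 with DESeq2, 135 with the series as a block, 649 in series B and 30 with Th3 added, and 1 to 530 with 1 sample left out. The 3653 of aN1aN2 against RW and the 2374 against aJ1aJ2 became 1167 and 760 with thinned cells, and 2689 to 4029 and 1548 to 2369 with 1 sample left out. In the ligand comparison the folding list had 14 members called without the filter, 10 with DESeq2, 11 with the series as a block, 14 in series B, 8 with thinned cells and 2 with Th3 added, and 0 to 14 with 1 sample left out. The iodide list had 1 without the filter, with the block, in series B and with thinned cells, and 0 to 1 with 1 sample left out. The uptake list had 2 without the filter, 2 with DESeq2, 2 with the block and 4 in series B, and 0 to 4 with 1 sample left out. The transcription factor list had 3 in series B and 0 with thinned cells, and 0 to 2 with 1 sample left out. In the receptor comparison thinned cells left 4 transcription factor genes called, and the uptake list had 4 to 8 with 1 sample left out. Of 1317 values for other named genes, 1223 kept direction and side of the threshold, 81 lost it, 11 gained it and 2 turned, Duoxa2 to 0.065 and Ero1a to 0.71, both with thinned cells.

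RW and aN1aN2 share the replicate numbers 1 and 2. Deviations of samples with the same number correlated at 0.02 and -0.01. Those of RW 1 with aN1aN2 2 correlated at 0.10, and those of RW 2 with aN1aN2 1 at 0.0081. Such correlations include counting noise and cannot show whether the samples were prepared as pairs. With the replicate block over these 4 samples Tg changed by 0.06 in Th1 (adjusted p = 0.0909) and by 0.65 outside (adjusted p = 0.164), and 3524 genes were called in Th1. No alternative scaling moved the median of all genes by over 0.1 except the absence of a filter outside Th1, at -0.11 and -0.14 for aN1aN2.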
